A study of Mus musculus with 2 samples.

Results

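Among splenic dendritic cells, a small set carried transcripts of Ryr3, Mdk, Nid1 and Crispld2 without any of Ccr7. In summed expression the set lay between resting type 2 conventional dendritic cells (cDC2) and mature Ccr7+ Fscn1+ dendritic cells. Single cells of the set overlapped both. Sirpa and Ltb, which were among the genes used to choose the resting cells, stood near their levels in resting cDC2. Ccnd1 stood 9.75-fold above mature cells in one library (L-cDC) and 13.8-fold in the other (M-cDC), and Relb stood close to its mature level. The members were chosen on raw UMIs (unique molecular identifiers, each a counted transcript). A cell had to hold at least 3 UMIs of Nid1, Ryr3, Mdk and Crispld2 together (the 4 rule genes), at most 2 of Siglech, Cd209d, Cd209e and Lag3 together, and 0 of each of Ccr7, Xcr1, Mki67, Top2a, Cd79a, Nkg7 and C1qa. Of 9934 cells that passed the filters, 126 met the rule. The rule and both comparison groups were set on the same libraries that were then read, so every difference between them is a description.

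Spleens of untreated mice with the alleles Il7r-cre and Rosa26-lsl-tdTomato, at an age of 7 to 9 weeks, gave the cells, which were enriched on CD11c beads and sorted. L-cDC were tdTomato-positive and M-cDC tdTomato-negative, in mice of the same genotype, and in this design the red protein marks a cell whose own or ancestral Il7r locus has driven Cre. How many mice were pooled is not given in the sources used here. With 1 library per group and no replicates, no test was made, and the 95% intervals speak of counting alone. In the L-cDC library there were 4939 barcodes and 40170515 UMIs, and in the M-cDC library 6674 barcodes and 52973960 UMIs. Of these, 4086 and 5848 had at least 500 genes and at most 10% mitochondrial UMIs. Both libraries shared 6 barcodes, none of them a member's.

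In the spleen, resting cDC2 sample antigen and prime CD4 T cells. On maturation a dendritic cell gains the chemokine receptor Ccr7 and the actin bundler Fscn1, raises costimulatory ligands and NF-kB proteins, and loses much of its antigen uptake machinery. The rule genes are not part of that textbook programme. Ryr3 encodes a ryanodine receptor, a channel that releases calcium from internal stores. Mdk encodes midkine, a secreted heparin-binding growth factor. Nid1 encodes nidogen, a glycoprotein of basement membranes, and Crispld2 a secreted cysteine-rich protein. Ccnd1, listed with them as a marker, encodes cyclin D1, which drives entry into the cell cycle with Cdk4 and Cdk6. In the GRCm38 annotation Ryr3 lies on chromosome 2 (112631355 to 113217096, minus strand), Mdk also on chromosome 2 (91929805 to 91932297, minus), Nid1 on chromosome 13 (13437551 to 13512269, plus), Crispld2 on chromosome 8 (119992438 to 120052793, plus) and Ccnd1 on chromosome 7 (144929931 to 144939925, minus).

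The rule found 36 members in L-cDC, 0.881% of its cells (exact Clopper-Pearson interval 0.618 to 1.22), and 90 in M-cDC, 1.54% (1.24 to 1.89). Their median depth was 7454 UMIs in L-cDC and 5898 in M-cDC. Members were compared with 2 gates set on the same libraries. The resting cDC2 gate held 52 L-cDC and 479 M-cDC cells with no Ccr7, Fscn1 or rule gene UMI and at least 3 UMIs of Sirpa, Clec4a4, Ltb, Ffar2, Cd209a and Mgl2 together (median 7916 and 7372 UMIs). The mature gate held 2138 and 2501 cells with at least 2 UMIs each of Ccr7 and Fscn1 (median 8489 and 7155). Cells of both gates also had to meet the rule's conditions on the other excluded genes.

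The rule genes were seldom all in 1 cell. Ryr3 was found in 20 of 36 L-cDC members and 79 of 90 M-cDC members, Mdk in 18 and 31, Nid1 in 16 and 25, and Crispld2 in 16 and 26. Ryr3 without any other rule gene was found in 9 of 36 L-cDC members and 42 of 90 M-cDC members. Only 2 L-cDC and 5 M-cDC members carried all 4, while 14 and 44 carried 1. Members just inside the threshold, with a sum of 3, numbered 13 in L-cDC and 24 in M-cDC, and 19 and 50 cells that met the other conditions lay just outside it with a sum of 2. In M-cDC both sides of the threshold had like levels of Ccnd1, at 1688 CPM (UMIs per 1e6 UMIs) inside and 1567 CPM outside, and of Fscn1, at 148 and 209 CPM. In L-cDC they did not, with Ccnd1 at 1725 CPM inside and 769 outside, and Fscn1 at 365 and 1343 CPM.

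Such sums of rule genes were rare in type 1 conventional dendritic cells (cDC1), a separate branch read here for comparison. The part of free RNA in the rule gene counts was not tested. Of cells with at least 2 Xcr1 and no Ccr7 UMI, whose median depth was 16278 UMIs in L-cDC and 14830 in M-cDC, 1 of 176 and 0 of 674 reached a rule gene sum of 3, the second of which allows a share of up to 0.445% at 3 counts (exact upper limit 0.546%). Ryr3 had a UMI in 0.568% and 1.04% of them. Among cells that met the resting cDC2 gate with the condition on rule genes lifted (median 7911 and 7039 UMIs), 8 of the 69 from L-cDC (11.6%) and 35 of the 610 from M-cDC (5.74%) reached that sum, and these cells were members. Ryr3 had a UMI in 14.5% and 19.7% of them.

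Most cells with these transcripts did carry Ccr7. A rule gene sum of 3 or more was reached by 446 L-cDC cells (10.9%) and 502 M-cDC cells (8.58%), and 400 (89.7%) and 386 (76.9%) of them had Ccr7. Ccr7 was the one condition that 317 L-cDC and 320 M-cDC cells failed. Set beside these Ccr7-positive carriers, the members had more of several genes of the resting state. Ffar2, a receptor for short-chain fatty acids, stood at 182 and 365 CPM in L-cDC and M-cDC members and at 15.9 and 65.1 CPM in the carriers with Ccr7. Sirpa, the inhibitory receptor that marks cDC2, stood at 247 and 259 CPM in members and at 31.7 and 85.6 CPM in those carriers. Ccnd1 stood at 1055 and 1954 CPM in members and at 309 and 703 CPM in the carriers. Fscn1 and Socs2 went the other way, with 392 and 305 CPM of Fscn1 in members against 1531 and 1356 CPM in the carriers, and 129 and 86.2 CPM of Socs2 against 723 and 647 CPM.

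The label cDC2-like was borne out in part only. Of 17 genes of a cDC2 list that passed the minimum levels given below, 8 were at least 2-fold lower than in resting cDC2 in both libraries. None was higher, and the median log2 ratios were -1.14 in L-cDC and -1.02 in M-cDC. Against mature cells 5 of 12 considered genes of that list were higher and 3 lower, with median log2 ratios of -0.088 and 0.094. The list summed to 970 and 1319 CPM in members, 1717 and 1908 CPM in resting cDC2 and 1462 and 1407 CPM in mature cells. By this list, members thus stood no higher than mature cells. Sirpa (247 and 259 CPM in members, 195 and 226 CPM in resting cDC2) and Ltb, the lymphotoxin beta chain (958 and 1105 CPM against 931 and 894 CPM), differed by less than 1.3-fold in both libraries. Itgax, which encodes CD11c, stood at 121 and 183 CPM in members and 186 and 183 CPM in resting cDC2, and the class II chain H2-Aa at 6705 and 7426 CPM against 8120 and 9737 CPM. The dendritic cell regulator Zbtb46 (36.4 and 80.7 CPM against 45.4 and 51.9 CPM) and the receptor Flt3 (113 and 125 CPM against 118 and 154 CPM) were present in both. Mgl2 and Cd209a were far lower in members. The resting cDC2 gate used Sirpa, Ltb, Mgl2 and Cd209a, so their levels there were set in part by the choice of cells. Mgl2 was at 0 in both libraries, against 134 and 59.1 CPM in resting cDC2, and Cd209a, a lectin of the same resting cells, stood at 4.04 and 23.9 CPM against 195 and 279 CPM.

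In L-cDC, 9 of the 36 members stood apart. They carried at least 3 of Syt1, Chst1, Cdh2, Prg3, Kif21a and Nrn1. This set was chosen, after the values were seen, from the genes with the highest ratios of L-cDC over M-cDC members. At least 3 of the set were found in 11 of all 4086 L-cDC cells, in 1 of 5848 M-cDC cells (also a member) and in no cell of the resting or mature gates. All 9 had Nid1. Their Ccnd1 was 194 CPM, against 1526 CPM in the other 27 L-cDC members, and Ffar2 was 11.4 CPM against 275 CPM. Flt3 had no UMI among their 87591, which allows up to 34.2 CPM at 3 counts (exact upper limit 42.1 CPM), against 175 CPM in the other 27. Sirpa (251 CPM against 244 CPM) and Ltb (902 CPM against 988 CPM) were alike in both, and H2-Aa was 4544 CPM against 7889 CPM. Nid1 reached 594 CPM against 93.8 CPM, and Ncam1, Tnfrsf11b and Slc7a10, also chosen after their values were seen, 114, 91.3 and 126 CPM against 0 UMIs of each. Aire, the regulator of self-antigen expression in the thymus, was 57.1 CPM against 6.26 CPM, in 5 UMIs against 1. Some of the values below are also given without these 9 cells. Per-cell shares, nearest neighbours and most levels of single genes are not.

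**Figure D1:**
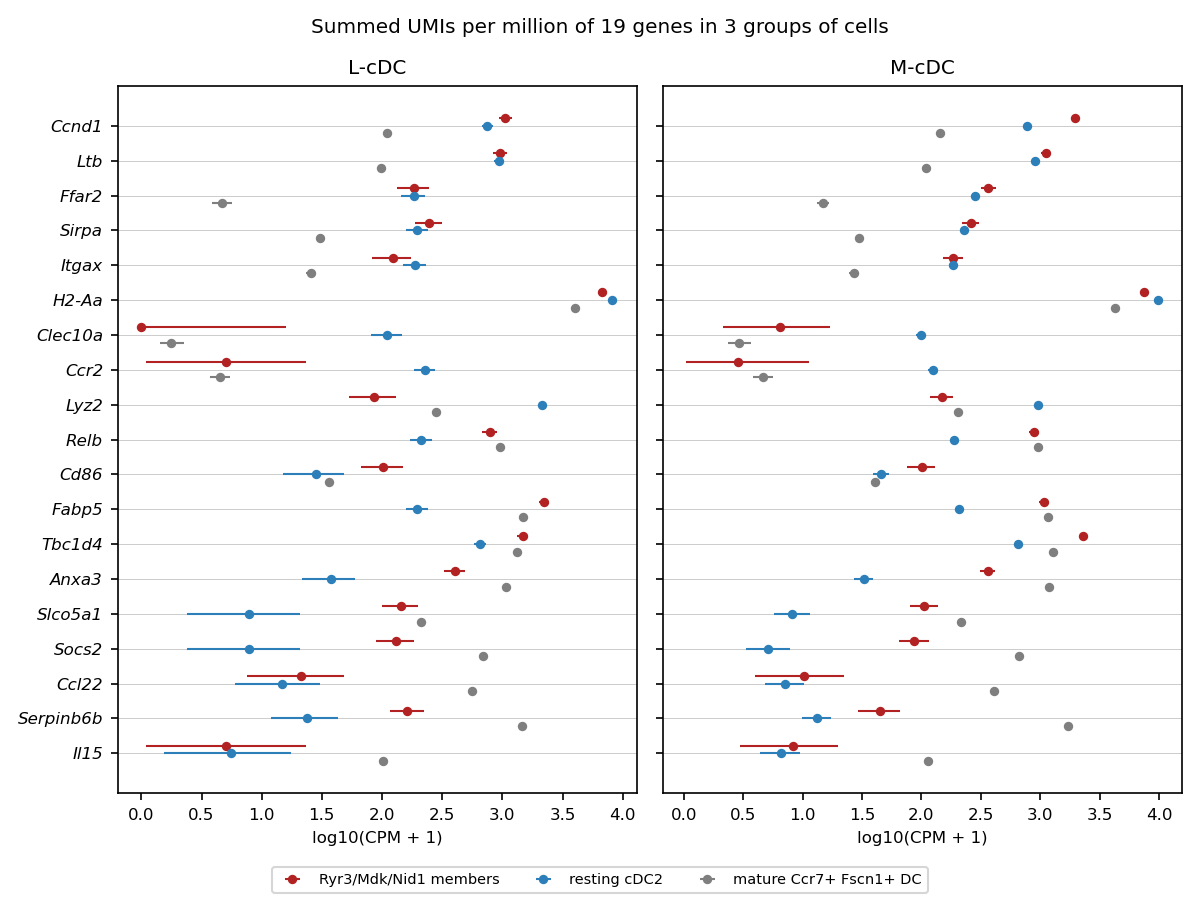
Level of 19 genes, as log10 of CPM plus 1 (horizontal axis), in members (red), resting cDC2 (blue) and mature dendritic cells (grey) of L-cDC (left) and M-cDC (right). Bars are exact Poisson 95% intervals. Ltb, Ffar2 and Sirpa of members, all used by the resting cDC2 gate, lie near resting cDC2. Relb lies near mature cells, and Anxa3 and Socs2 lie between the other groups in both libraries.

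Against resting cDC2, members had higher Relb, costimulatory ligands and part of the other mature genes, and lower levels of several lectins and of genes such as Ccr2 and Lyz2. A gene was called when it differed by at least 2-fold in the same direction in both libraries, among genes with at least 20 CPM in the higher gate and 25 UMIs over both gates in each library; genes used by a gate were left out. Of 3293 genes considered, 135 (4.1%) were called higher in members and 61 (1.85%) lower, 5.95% in all. The median log2 ratio over all of them was 0.03 in L-cDC and 0.01 in M-cDC. Without the 9 L-cDC cells described above and their M-cDC counterpart, 98 were higher and 56 lower of 2898, and all 24 genes that the naming rule picks stayed past 2-fold. Removing the condition on Fscn1 from the resting gate gave 139 higher and 87 lower of 5007.

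The NF-kB subunit Relb was at 784 CPM in L-cDC members and 884 CPM in M-cDC members, against 211 and 186 CPM in resting cDC2. It was higher by 3.71-fold (2.88 to 4.81) and 4.77-fold (4.23 to 5.37), and 34 of 36 and 87 of 90 members had it. In the 18-gene NF-kB list, 4 of 17 considered genes were called higher (Relb, Tnfaip3, Birc2, Bcl2a1b) and none lower, with median log2 ratios of 0.57 and 1.06. Tnfaip3, the A20 inhibitor of the same pathway, stood at 133 and 108 CPM in members against 38.6 and 31.5 CPM in resting cDC2.

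Ligands for T cells were higher too. Of 7 considered costimulation and checkpoint genes, 4 were called higher and none lower. Cd86, the ligand of CD28 and CTLA-4, stood at 101 and 99.1 CPM in members against 27.3 and 44.5 CPM in resting cDC2, 3.71-fold (1.79 to 8.10) and 2.23-fold (1.61 to 3.05) higher. Cd274, which encodes PD-L1, was at 117 and 127 CPM against 52.2 and 56.9 CPM, Icosl at 162 and 178 CPM against 59.1 and 55.8 CPM, and Cd200 at 133 and 51.4 CPM against 25 and 6.35 CPM. Of these 4, Cd200 had the largest difference between the members of both libraries.

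Among other genes of mature dendritic cells, 8 of 13 considered were called higher and none lower. Anxa3, a calcium-dependent membrane-binding annexin, stood at 404 and 360 CPM in members and at 36.3 and 31.8 CPM in resting cDC2, 11.1-fold (6.52 to 20.2) and 11.3-fold (8.95 to 14.4) higher. The transporter gene Slco5a1 stood at 141 and 105 CPM against 6.81 and 7.18 CPM. Socs2, an inhibitor of cytokine receptor signalling, stood at 129 and 86.2 CPM against 6.81 and 4.14 CPM, although 1 L-cDC member gave 41% of its UMIs there. In the list for migration and cytoskeleton, 5 of 11 were higher, among them the calcium channel subunit Cacnb3 (105 and 51.4 CPM against 15.9 and 8.28 CPM) and Marcksl1 (546 and 328 CPM against 125 and 71.8 CPM). Chemokines of the mature list were not among the genes called higher. Of 5 considered chemokine and cytokine genes the amino acid oxidase Il4i1 alone was called, at 796 and 754 CPM in members against 218 and 152 CPM, while Ccl22 had 5 UMIs in the members of each library.

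Several genes with the largest ratios were carried by few members. The prion protein gene Prnp stood at 267 and 78.9 CPM in members, in 14 cells of each library, against 2.27 and 1.38 CPM. The sodium pump subunit Atp1b1 stood at 198 and 73.4 CPM, in 8 and 9 cells, against 0 and 1.38 CPM, and 1 M-cDC member gave 48% of its UMIs there. Without the 9 L-cDC cells described above, L-cDC members held 131 CPM of Prnp and 50.05 CPM of Atp1b1, and M-cDC members without their counterpart held 67.2 and 39.2 CPM. Also among the 12 highest were Ankrd33b, the muscle spring gene Ttn, Tmem158, the bicarbonate exchanger Slc4a8, the adhesion receptor Adgrg6 and Pdlim4, at 10.5-fold to 43.7-fold in the 2 libraries.

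Genes of the monocyte-like, ESAM-low branch of cDC2 were mixed. In their list 5 of 11 considered genes were called lower (Lyz2, Lgals3, Ccr2, Cx3cr1, Clec12a) and none higher, with median log2 ratios of -2.02 and -0.96. Against mature cells 5 of 8 were called higher (Ms4a6c, Ms4a6b, Ms4a4c, S100a4, S100a6) and Lgals3 lower. The list summed to 5820 and 4795 CPM in members, 7602 and 5846 CPM in resting cDC2 and 1144 and 760 CPM in mature cells. Ccr2, the chemokine receptor of monocytes, had 1 UMI in the members of each library (4.04 and 1.83 CPM) against 227 and 124 CPM in resting cDC2. Lysozyme, Lyz2, stood at 84.9 and 147 CPM in members against 2137 and 958 CPM, and 1 M-cDC member gave 78% of its UMIs. In the cDC2 list 8 of 17 were called lower and none higher, among them the lectins Clec10a (0 and 5.50 CPM in members against 109 and 98.0 CPM), Clec12a (4.04 and 0 CPM against 61.3 and 59.9 CPM) and Clec4b1 (0 and 5.50 CPM against 72.7 and 68.5 CPM). The chemokines Ccl6 and Ccl9 and the galectins Lgals1 and Lgals3 were also lower, by 4.32-fold to 7.87-fold. In the Notch2 and ESAM-high list 1 of 5 was called, Gpr183, the oxysterol receptor that positions cDC2, at 513 and 251 CPM in members against 120 and 96.4 CPM.

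The resting gate joined more than 1 kind of cDC2. Against resting cells with Ltb or Ffar2 and at most 1 UMI of Mgl2 and Cd209a, 110 genes were higher and 28 lower of 2685. That was 5.14% in all, against 135 higher and 61 lower of 3293 (5.95%) with the full resting gate. The L-cDC resting gate also held T cell transcripts, 238 CPM summed over 9 genes against 8.08 CPM in L-cDC members, while in M-cDC the sums were 2.21 CPM in the resting gate and 12.8 CPM in members. Il7r stood at 76.8 CPM in L-cDC members against 125 CPM in their resting gate, and at 45.9 CPM in M-cDC members against 14.6 CPM in theirs. The part of these T cell transcripts in that difference was not tested.

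Against mature cells the members had more Ccnd1 and class II genes, and less of the chemokines, cholesterol synthesis and class I loading genes. Of 5207 genes considered, 794 (15.2%) were called higher in members and 390 (7.49%) lower, 22.7% in all, with median log2 ratios over all considered genes of 0.31 and 0.33. Leaving mitochondrial, ribosomal protein and immunoglobulin genes out of the CPM raised every log2 ratio over mature cells by 0.11 in L-cDC and 0.12 in M-cDC. Without the 9 L-cDC cells and their counterpart, 737 were higher and 391 lower of 5017. In L-cDC and M-cDC members the median cell had a mitochondrial share of 3.16% and 3.70% of UMIs, against 2.63% and 2.43% in mature cells and 3.73% and 3.37% in resting cDC2; its part in these counts was not tested.

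Ccnd1 was at 1055 CPM in L-cDC members and 1954 CPM in M-cDC members, against 750 and 774 CPM in resting cDC2 and 108 and 142 CPM in mature cells. Over mature cells it was higher by 9.75-fold (8.54 to 11.1) and 13.8-fold (12.8 to 14.8). Over resting cDC2 it was higher by 1.41-fold (1.19 to 1.66) and 2.52-fold (2.35 to 2.71), so that it passed 2-fold in M-cDC alone, and the 27 L-cDC members left without the 9 had 1526 CPM. Among 10 considered cyclin genes and their partners and inhibitors, Ccnd1, Cdk4 and Mycl were called higher than in mature cells, and Ccnd2 and Cdkn1a lower. The helicase genes Mcm3, Mcm4 and Mcm7 were called higher than in mature cells and none of 3 considered replication genes differed from resting cDC2. Mki67 and Top2a were at 0 by the rule.

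Some genes with the largest excess over mature cells stood near their level in resting cDC2. March1, a ubiquitin ligase that takes class II and CD86 off the surface of resting dendritic cells, stood at 64.7 and 134 CPM in members against 1.97 and 4.78 CPM in mature cells. Alox5ap, the helper of leukotriene synthesis, stood at 210 and 363 CPM against 7.31 and 15.1 CPM, and the tetraspanin Cd37 at 190 and 110 CPM against 8.66 and 5.10 CPM. Both March1 and Cd37 were within 2-fold of resting cDC2 in both libraries. The sodium channel gene Scn3a stood at 109 and 67.9 CPM against 1.71 and 1.31 CPM in mature cells, and was also higher than in resting cDC2 (13.6 and 7.45 CPM). Cd244, Cyp4f16, Rcn3, Parvg and Cadm3 were also among the 10 highest, each at least 20-fold. Of 15 considered calcium release and entry genes, Itpr1, Itpr2, Itpr3, Stim2, Orai2 and Nfatc2 were called higher than in mature cells, 1 other was lower, and none of 9 was called against resting cDC2. Of 7 midkine receptor genes considered, Ncl and Notch2 were higher than in mature cells and Sdc3 and Itgb1 lower, and none of 6 was called against resting cDC2. In the basement membrane list 15 of 17 genes were at 0 in L-cDC members and 13 in M-cDC members. In resting cDC2 16 and 10 were at 0, and in mature cells, with many more UMIs in all, 7 and 5.

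Class II and class I antigen presentation split in opposite directions. Of 11 considered class II and loading genes 7 were called higher than in mature cells (among them H2-Ab1, H2-DMa, H2-Oa and the transactivator Ciita) and none lower. Of 10 class I genes, 7 were called lower (Tap1, Tap2, Tapbp, Psmb8, Psmb9, Psmb10, Nlrc5) and none higher. Against resting cDC2 these lists moved little, with 1 of 11 class II genes (H2-DMb1) lower and none of 9 class I genes called.

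Genes of the fully mature cell were low in members. Ccl22, a chemokine for regulatory and helper T cells, stood at 20.2 and 9.17 CPM in members against 561 and 410 CPM in mature cells. Il15, a cytokine for NK and memory T cells, stood at 4.04 and 7.34 CPM against 102 and 113 CPM, and Itgb8, which activates latent TGF-beta, at 4.04 and 5.50 CPM against 50.2 and 68.3 CPM. Of 9 considered chemokine and cytokine genes, 8 were called lower. Of 12 considered cholesterol synthesis and uptake genes, 11 were called lower, among them Hmgcs1 and Sqle. Of 19 other mature genes, 14 were lower, while in the NF-kB list 1 of 18 was lower (Nfkbib) and none higher. The costimulation list was mixed, with Cd40, Cd83, Tnfrsf4, Tnfrsf9 and Pvr lower and Cd86 higher of 10. Cd86 was thus the one considered ligand called higher in members than in both other groups, at 101 and 99.1 CPM against 35 and 39.9 CPM in mature cells. The rest of the 10 lowest were Bcl2l14, Insl6, Net1, Crip1, Dnah2 and Arc.

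Placed on a line from resting cDC2 (0) to mature cells (1), the median gene of the members lay at 0.32 in L-cDC (849 genes, quartiles 0.086 and 0.55) and at 0.24 in M-cDC (793 genes, quartiles 0.071 and 0.47). The position of a gene is the log2 ratio of members over resting cDC2 divided by that of mature cells over resting cDC2, and each library read the genes that differed by at least 4-fold between mature and resting cells in the other library. Of these genes, 77.1% in L-cDC and 82.2% in M-cDC lay between 0 and 1. The medians were 0.44 and 0.40 for genes high in mature cells and 0.26 and 0.17 for genes high in resting cells. Members with UMIs of at least 2 rule genes lay at 0.42 in L-cDC and 0.40 in M-cDC. Against the few resting cells with Mgl2 or Cd209a and little Ltb or Ffar2 (3 in L-cDC and 18 in M-cDC), the medians were 0.40 and 0.37. Leaving out the 9 L-cDC cells and their counterpart gave 0.30 and 0.23.

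Single genes were spread widely along that line in both libraries. Relb lay at 0.87 in L-cDC and 0.95 in M-cDC, Slco5a1 at 0.88 and 0.79, Marcksl1 at 0.89 and 0.69, Anxa3 at 0.71 and 0.67 and Socs2 at 0.64 and 0.60. Ccl22 lay at 0.11 and 0.10 and Il15 at -0.04 and 0.09, close to resting cells. Ccnd1, at -0.18 and -0.54, lay outside the line on the far side of the resting cells. Ccr2 (0.97 and 1.19), Clec12a (1.30 and 1.14) and Lyz2 (1.59 and 1.2) lay at or past the mature end in at least one library. By list, the NF-kB genes read had a median of 0.65 in L-cDC (4 genes) and 0.76 in M-cDC (2 genes), genes for migration and cytoskeleton 0.60 and 0.51 (6 genes each), other mature genes 0.42 and 0.38 (16 and 15 genes) and chemokines and cytokines 0.26 and 0.21 (8 and 7 genes).

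**Figure D2:**
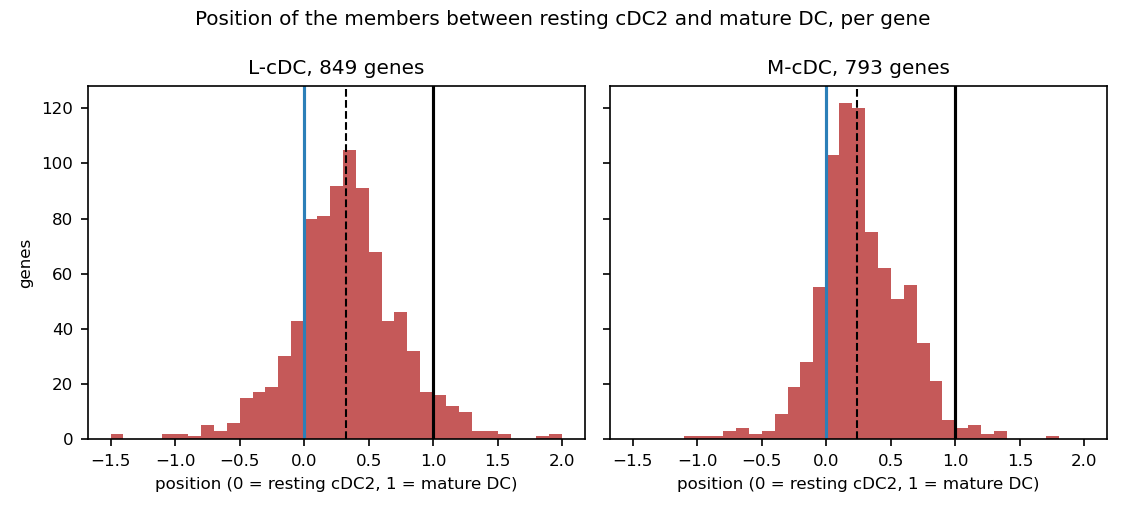
Number of genes (vertical axis) by position of the members between resting cDC2 (0, blue line) and mature cells (1, black line) in L-cDC (left, 849 genes) and M-cDC (right, 793 genes). The dashed line is the median, 0.32 and 0.24, and positions past the ends of the axis are drawn in the end bins. Most genes lie between both lines, nearer to resting cDC2.

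Cell by cell, the members were spread over the ranges of both gates. Genes that were high in mature cells of the other library made up a median of 6.44% of UMIs per L-cDC member and 6.18% per M-cDC member, against 2.68% and 2.64% per resting cDC2 and 17.8% and 17.9% per mature cell. Members ranged from 1.41% to 23.7% in L-cDC and from 2.61% to 26.6% in M-cDC. The central 95% of each gate served as its range. In L-cDC 24 of 36 members lay above the resting range and 24 of 36 below the mature range. In M-cDC 31 of 90 lay above the resting range and 59 of 90 below the mature range, so both libraries' members overlapped both gates. Genes high in resting cells made up 3.05% and 3.52% of UMIs in the median member, 5.03% and 4.70% in the median resting cell and 0.580% and 0.400% in the median mature cell. For these genes 19 of 36 L-cDC members lay below the resting range and 31 above the mature range. In M-cDC 42 and 72 of 90 did. The Ccr7-positive carriers of the rule genes had 16.7% and 14.3% of UMIs in mature-high genes, near the mature gate.

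**Figure D3:**
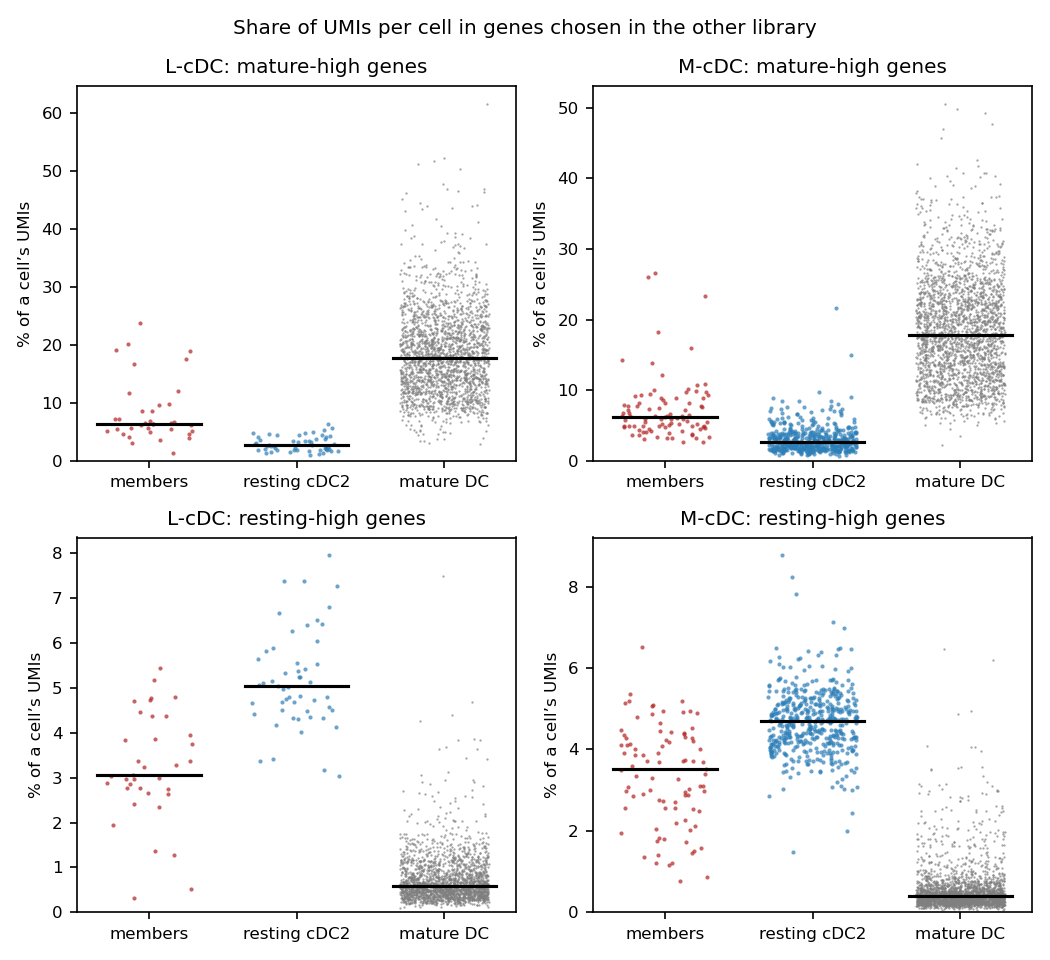
Share of a cell's UMIs (vertical axis, percent) in genes high in mature cells (top) and high in resting cDC2 (bottom), chosen in the other library, for members (red), resting cDC2 (blue) and mature cells (grey) of L-cDC (left) and M-cDC (right). Each point is a cell and the bar is the median. Medians of members are 6.44% and 6.18% in the top panels, between the medians of the other groups.

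The nearest cells of a member, found in a graph made without any gate gene, were most often cells outside all 3 gates. Other members made up 23.1% of the 15 nearest cells in L-cDC and 23.3% in M-cDC, although members were 0.881% and 1.54% of all cells. The places of a cell are not independent draws, so no interval is given. The median member had 2 other members among its 15 in L-cDC and 3 in M-cDC, and the most was 11 and 10. Other members were the majority for 8 of 36 and 7 of 90. Resting cDC2 made up 4.44% and 11.9%, against 1.27% and 8.19% of all cells, and mature cells made up 18.1% and 13.7%, against 52.3% and 42.8% of all cells. Resting cDC2 themselves had mature neighbours in 1.28% and 0.376% of places. Of the members' other neighbours, cells without Ccr7 and with a rule gene sum of 1 or 2 took 10% and 20% of all places, though they were 1.25% and 2.82% of cells. Cells with Ccr7 outside the mature gate took 15.7% and 13.4%. In L-cDC 11 of 36 members, and in M-cDC 15 of 90, had no other member among the 15.

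**Figure D4:**
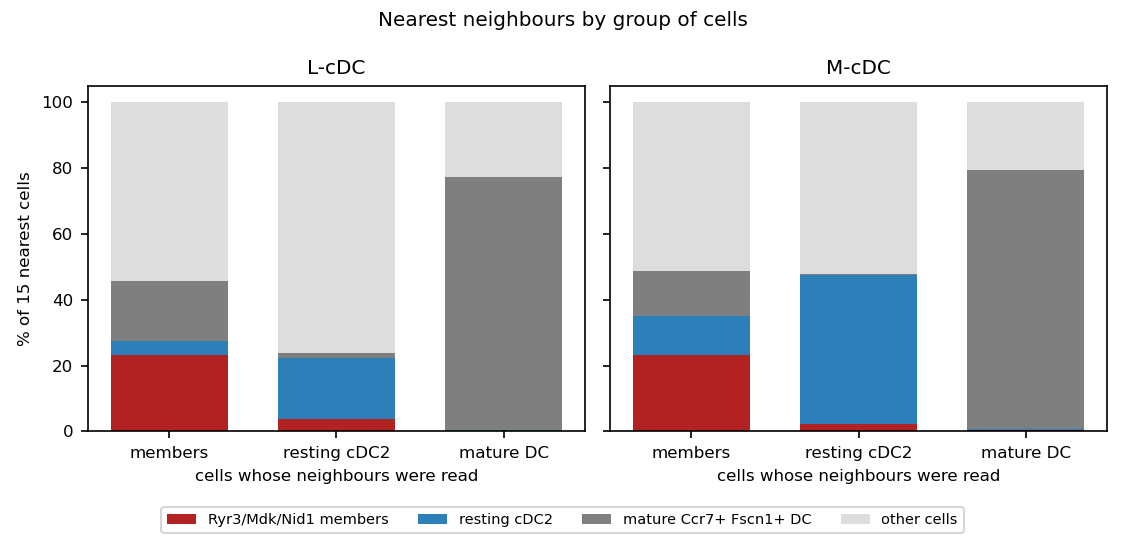
Share of the 15 nearest cells (vertical axis, percent) that were members (red), resting cDC2 (blue), mature cells (dark grey) or other cells (light grey), for the cells of each of the 3 groups (horizontal axis) in L-cDC (left) and M-cDC (right). Members have 23.1% and 23.3% members and both resting and mature cells among their neighbours, while mature cells have few members or resting cDC2 among theirs.

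Members with 1 rule gene and with several differed in other genes. In M-cDC, 46 members with 2 or more rule genes had 482 CPM of Fscn1, against 151 CPM in the 44 with 1, and 1137 CPM of Relb against 665 CPM. They had 154 CPM of Socs2 against 27.4 CPM, 166 CPM of Prnp against 3.43 CPM, and 158 CPM of Atp1b1 against 0 CPM. Ffar2 went the other way, 253 CPM against 463 CPM, and Ccnd1 was alike at 2077 and 1847 CPM. Mature-high genes took a median of 7.55% of UMIs in the members with 2 or more rule genes and 4.96% in those with 1. In L-cDC the 22 members with 2 or more had 530 CPM of Fscn1 against 176 CPM in the 14 with 1, but Ccnd1 was 689 CPM against 1626 CPM. Of the 9 cells that stood apart, 7 were among those 22. Median depth was 5050 UMIs in the M-cDC members with 2 or more rule genes and 6426 in those with 1.

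Fscn1 itself, which the rule did not use, had a UMI in 25 of 36 L-cDC members (69.4%) and 54 of 90 M-cDC members (60.0%), at 392 and 305 CPM against 1775 and 1713 CPM in mature cells. Cells that met the resting gate with the condition on Fscn1 lifted had it in 66 of 118 cases in L-cDC (55.9%, 178 CPM) and 171 of 650 cases in M-cDC (26.3%, 49.5 CPM). Cells with Xcr1 and no Ccr7 had it in 31.2% and 17.8% (21.1 and 13.3 CPM) at their greater depth. With cells thinned to 3000 UMIs, which left out 6 L-cDC and 4 M-cDC members, Fscn1 was found in 43.3% and 43.0% of members and in 96.5% and 97.6% of mature cells. The immunoglobulin gene Ighm, which dendritic cells should lack, was then found in 13.3% and 32.6% of members, 30% and 37.1% of resting cDC2 and 26.6% and 23.1% of mature cells. Relb, at the same depth, was found in 66.7% and 84.9% of members, 40.0% and 36.5% of resting cDC2 and 90.7% and 91.2% of mature cells (94.4% and 96.7% of members before thinning).

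Between the libraries, the 8 genes with the highest ratios of L-cDC over M-cDC members included all 6 genes by which the 9 cells that stood apart were picked. That these ratios rest on the 9 cells follows from that choice and is no separate result. Several other large ratios rested on a handful of UMIs. Of 3892 genes considered (a minimum of 20 CPM in one library, and of 25 UMIs in all), 144 (3.7%) were at least 2-fold higher in L-cDC members and 271 (6.96%) lower, 10.7% in all. At the minimum of 25 UMIs a 2-fold ratio can lie within counting error of 1, so this is no count of changed genes. Without those 9 cells and their counterpart, 87 were higher and 277 lower of 3467. Cdh2, which encodes N-cadherin, stood at 356 CPM in L-cDC members against 11.0 CPM in M-cDC members, and the proteoglycan gene Prg3 at 416 CPM against 20.2 CPM. Syt1, Chst1, Kif21a and Nrn1 were higher by 14.2-fold to 57.3-fold. Capg, an actin-capping protein, stood at 150 CPM against 7.34 CPM in 8 and 4 cells. Hspa1a, at 174 CPM against 11.0 CPM, had 74% of its L-cDC UMIs from 1 cell. The 8 genes with the lowest ratios, Slc1a5, Fgl2, Stat2, Kmo, Sirpb1a, Dusp16, Acot7 and Dhx30, had 1 to 3 UMIs in L-cDC members.

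The levels of the rule genes, on which the members were chosen, are given as a description. Ryr3 stood at 259 CPM in L-cDC members and 572 CPM in M-cDC members, and Nid1 at 271 and 105 CPM. Without the cells that stood apart, Nid1 was 93.8 and 91.5 CPM, Ryr3 363 and 581 CPM, Ccnd1 1526 and 1988 CPM, and Relb 895 and 889 CPM. Mdk (174 and 217 CPM) and Crispld2 (109 and 95.4 CPM) differed less over all members.

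The genes whose level over all cells went most with the mean of the 4 rule genes included Tbc1d4, Tcf7, Ctsh, Fabp5, Igsf3, Pold1 and Adgrg6. Pearson's r over 4086 L-cDC and 5848 M-cDC cells was 0.31 and 0.37 for Tbc1d4, a Rab GTPase-activating protein, and 0.23 and 0.24 for Adgrg6, the eighth. The cells of a library share its depth and its free RNA, and these values are a description. Tbc1d4 stood at 1471 and 2272 CPM in members, 650 and 649 CPM in resting cDC2 and 1333 and 1275 CPM in mature cells. The transcription factor gene Tcf7 stood at 101 and 114 CPM in members, 25 and 3.31 CPM in resting cDC2 and 163 and 144 CPM in mature cells. The fatty acid-binding protein gene Fabp5 stood at 2194 and 1062 CPM in members against 195 and 205 CPM in resting cDC2 and 1476 and 1164 CPM in mature cells, with 32% of its UMIs in L-cDC members from 1 cell. Tbc1d4 was higher in M-cDC members than in either gate.

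Most markers of other cell types had few or no UMIs in members, but the B cell and macrophage lists summed higher in members than in mature cells. All 7 neutrophil genes were at 0 in L-cDC members and 6 in M-cDC members, and all erythroid, platelet and basophil genes were at 0 in both. The 10 macrophage genes summed to 129 and 110 CPM in members, 90.9 and 83.4 CPM in resting cDC2 and 53.5 and 55.7 CPM in mature cells, with 7 and 5 at 0 in members. Adgre1, the F4/80 antigen, was called higher than in mature cells (36.4 and 69.7 CPM against 3.99 and 5.41 CPM) and stood at 72.7 and 72.3 CPM in resting cDC2. The 10 B cell genes summed to 307 and 185 CPM in members, 143 and 183 CPM in resting cDC2 and 146 and 116 CPM in mature cells, with 2 and 5 at 0 in members. Cd79b, a chain of the B cell receptor complex, was called higher than in mature cells (105 and 44.0 CPM against 5.18 and 5.41 CPM) and stood at 18.2 and 26.5 CPM in resting cDC2. The part of B cell and macrophage transcripts in the other results was not tested. In the NK list Ccl5 was the only gene with a UMI in members, of 8. The 15 stromal and endothelial genes summed to 32.3 and 29.4 CPM in members, 27.3 and 29.0 CPM in resting cDC2 and 10.8 and 10.5 CPM in mature cells, with 11 and 10 at 0 in members. Scrublet marked 1 member in each library as doublet-like.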

How the data were processed

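The deposited files are raw UMI count matrices of 31053 genes, 1 per library, made by the authors with Cell Ranger 6.1.2 per the file headers, on GRCm38 (mm10) per the submitters' processing notes. Cells had at least 500 genes and at most 10% mitochondrial UMIs. The members and gene lists were chosen with earlier results of these data known.

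UMIs were summed over each gate and library and given as CPM, with exact Poisson intervals. Ratios have exact conditional binomial intervals and shares Clopper-Pearson intervals, all at 95%. They cover counting error only. A gate at 0 was set to 3 UMIs over the gate. Genes the gates use were counted in no comparison. Named genes were, in each direction, the 12 furthest from resting cDC2 and the 10 furthest from mature cells by the smaller log2 ratio of both libraries, the 8 furthest between libraries whose interval leaves out 1, the 8 best correlated, gate genes, given markers and up to 4 members of each list furthest from resting cDC2. Other genes were named after their values were seen, and a few that the rule picks are not reported here. A position needed a 4-fold difference in the other library and, a condition added after seeing the data, a 2-fold difference the same way in the library read.

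Scrublet was run per library. Its threshold was 0.635 in L-cDC (3 cells marked) and 0.258 in M-cDC, and the lower one, applied to both, marked 143 and 248 cells, which were kept. The graph used 2000 variable genes, 30 principal components and 15 neighbours. The ratios and intervals were tested on simulated data. Alternatives covered cell filters, gates, thresholds, thinning, scaling and doublets. A further 4 were chosen after seeing the data: leaving out each gene's top cell, requiring 2 rule genes, leaving out the L-cDC cells that stood apart, and a resting gate without the condition on Fscn1. The work was done in Python 3.11.15 with scanpy 1.11.5 (including Scrublet), scikit-learn 1.9.0, pandas 2.3.3, numpy 2.4.6, matplotlib 3.10.9 and scipy 1.17.1.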

Additional observations from a re-analysis of the deposited data

How the results depend on the processing

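No paired analysis was possible because each group had 1 library and the labels carry no replicate numbers. The share of members (0.881% in L-cDC, 1.54% in M-cDC) became 1.35% and 2.39% at a rule gene sum of 2 or more, 0.416% and 0.821% at 5 or more, and 0.612% and 1.19% with cells thinned to 3000 UMIs. The 196 genes called against resting cDC2 (5.95% of 3293) became 405 (6.56% of 6177) at minimums of 5 CPM and 10 UMIs. At 50 CPM and 50 UMIs they became 80 (4.79% of 1669). Their split of 135 higher and 61 lower became 95 and 88 with thinning (8.42% of 2174 called). It became 85 and 81 at a sum of 5 (6.07% of 2737), and 149 and 135 with 2 rule genes or more (9.94% of 2856). The 1184 called against mature cells (22.7%) became 1971 (23.1%) and 596 (22.7%) at those minimums. CPM without mitochondrial, ribosomal protein and immunoglobulin genes gave 1066 higher and 356 lower (24.9% called). The 415 genes between libraries (10.7%) became 1228 (18.2%) and 143 (6.76%) at those minimums. They became 180 (12.9%) with thinning and 256 (11.9%) with 2 rule genes or more. The position (0.32 and 0.24) became 0.40 and 0.35 with thinning, 0.40 and 0.37 with resting cells chosen by Mgl2 and Cd209a, 0.42 and 0.40 with 2 rule genes or more, and 0.28 and 0.21 without the condition on Fscn1. It was 0.27 in L-cDC at 5 CPM, and in M-cDC 0.20 at a sum of 2 and 0.27 at a sum of 5. With 30 neighbours, 17.5% of those of L-cDC members were members. Of the 24 genes named against resting cDC2, 16 fell below 2-fold in at least 1 alternative (22 values, against 361 that held). Against mature cells 4 of 20 did (4 values, against 276 that held), and between libraries 6 of 16 (7 values, against 194 that held). The log2 ratio of L-cDC over M-cDC members reversed for Slc1a5 (0.52 with thinning), Sirpb1a (0.78 with thinning, 1.33 with 2 rule genes or more) and Hspa1a (-0.84 without the cells that stood apart). The cause was not tested in any of these. The 36 L-cDC members and 247440 UMIs limit what could be read of genes with few UMIs.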
